A study of Mus musculus with 9 samples.

Results

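Tat, Hpd, Hgd, Fah, Qdpr, and Pcbd1, 6 genes of phenylalanine and tyrosine breakdown, were taken by name from a table of liver mRNA levels that holds 24341 gene names. All 6 had a value in every mouse and passed the filter on low values. The livers came from 9 C57BL/6 wild-type mice, collected 48 h after treatment, with 3 mice given the agonist CD40 antibody FGK45 (mice 2, 5, and 9) and 6 control mice given PBS (mice 3, 4, 7, 8, 11, and 12). CD40 is a receptor of the immune system that is carried by antigen-presenting cells, and FGK45 activates it. The comparison bears on the liver response to this antibody, whose toxicity the study set out to separate from its effect on tumors. Whole liver tissue was used, so that every cell type of the organ contributed RNA. The methods say that in the animal studies mice without the fall in B cells that the antibody brings were excluded, and whether this touched these 9 mice is not given in the sources used here. Levels were given as FPKM, which scale the fragments of a gene to its transcript length and to the mapped reads, from libraries that read each transcript at its 3′ end. In such libraries the levels of different genes cannot be ranked against each other, so only changes are compared between genes.

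The liver is the main site where phenylalanine and tyrosine are broken down. Phenylalanine is first hydroxylated to tyrosine, a step that consumes the cofactor tetrahydrobiopterin, and Pcbd1 and Qdpr regenerate that cofactor in sequence. Tat then removes the amino group of tyrosine, Hpd oxidizes the product to homogentisate, Hgd opens its ring, and Fah splits the last intermediate into fumarate and acetoacetate. Loss of Fah causes hereditary tyrosinemia, and loss of Hgd causes alkaptonuria. Transcription of Tat is known to be induced by glucocorticoids in hepatocytes.

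The libraries held between 14684 and 15545 genes above the table's floor of 0.01 FPKM. The acute phase genes Saa1, Saa2, and Saa3 accounted for 25.4% to 25.9% of all FPKM after anti-CD40 and for 0.0449% to 0.380% in the controls. Of 13807 genes tested, 21.7% were lower and 23.5% were higher after anti-CD40 (limma, adjusted p under 0.05), and the median log2 fold change was 0.0056. In 19.6% of the genes tested every anti-CD40 mouse lay below every control mouse. The higher genes made up 52.0% of all calls, against 77.4% when the Saa genes were removed and the mice rescaled, and 93.3% when the mice were rescaled to hepatocyte marker genes. These rescalings moved the median of all genes up by 0.34 and 0.83 on the log2 scale.

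The mRNAs of 5 of the 6 genes fell after anti-CD40, against 21.7% lower over all genes tested. Over genes with a mean FPKM of 1 or more, 26.6% were lower. The 5 code for the enzymes from Hpd to Fah and for both enzymes of cofactor recycling. With FPKM as given, their levels in the anti-CD40 mice were between 2.31-fold and 3.95-fold lower than in the control mice. Quantile normalization and the rescalings above made these falls smaller. In each of the 5 every anti-CD40 mouse lay below every control mouse with FPKM as given, as in 19.6% of all genes tested. Tat did not pass the test, and its groups overlapped. The median log2 fold change of the 6 genes was -1.39. In whole tissue, fewer cells of a type and less RNA per cell cannot be told apart.

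**Figure D1:**
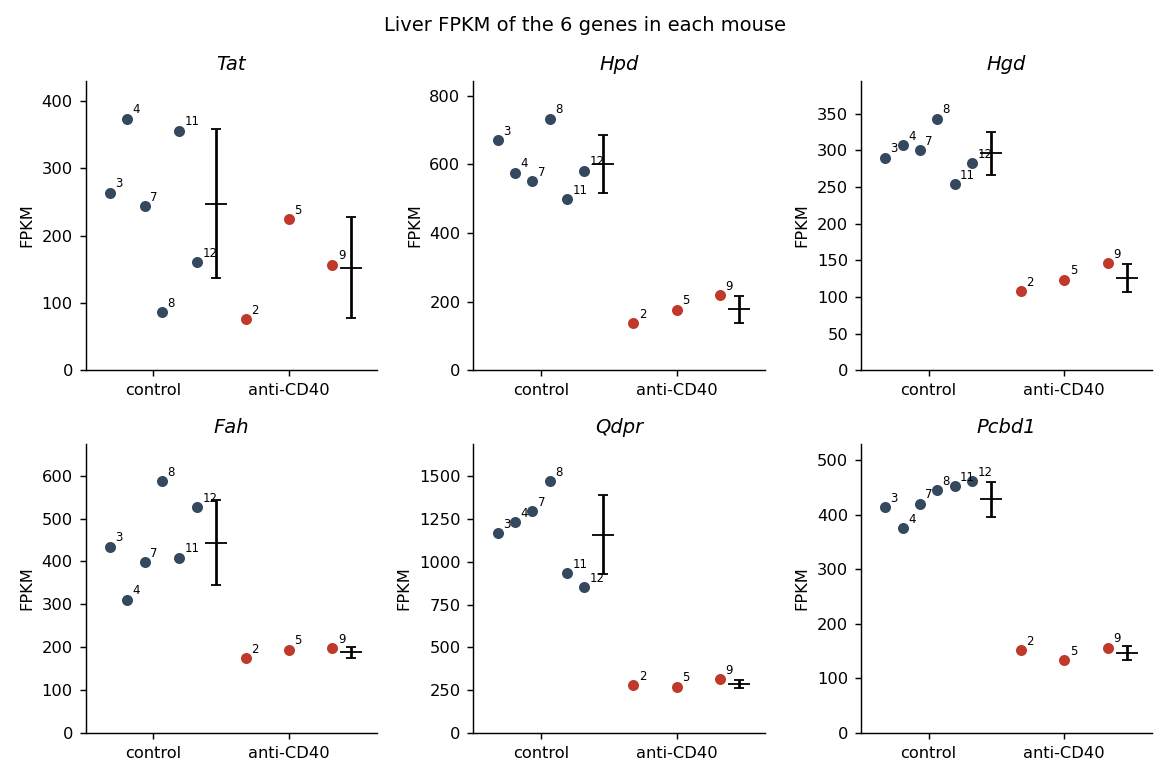
FPKM (vertical axis, linear and starting at 0) of each gene in each mouse, control at left and anti-CD40 at right, with mouse numbers beside the points and the mean with 1 SD to the right of each group. Tat alone has overlapping groups, and in Qdpr the anti-CD40 mice lie between 271 and 316 against 853 to 1471 in the control mice.

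Tat, on chromosome 8 (mm10 109990436 to 109999804), had FPKM of 75.7, 225, and 157 in anti-CD40 mice 2, 5, and 9. In the control mice its lowest level was 86.4, the median 254, and the highest 374. Anti-CD40 mouse 5 was above control mice 8 and 12, and control mouse 8 was below anti-CD40 mice 5 and 9. The mean was 153 ± 74.7 (SD, n = 3) after anti-CD40 against 247 ± 111 (SD, n = 6). This gave a log2 fold change of -0.67 with a standard error of 0.47 and an adjusted p of 0.273 (limma). The 95% interval of this change ran from -1.73 to 0.38, so that neither no change nor a fall as large as that of Hgd lies outside it. Without mouse 5 the log2 fold change was -1.02, and without mouse 2 it was -0.24.

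The spread of Tat within each group was the widest of the 6. Its highest control level was 4.33 times its lowest, and in the anti-CD40 mice this ratio was 2.97. The SD of log2 Tat levels was 0.80 in both groups, which is larger than that of 95.9% of the 10155 genes whose mean FPKM was 1 or more in the control mice and of 98.2% in the anti-CD40 mice.

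Hpd, 4-hydroxyphenylpyruvate dioxygenase, is encoded on chromosome 5 (123171807 to 123182686). Its FPKM were 138, 176, and 218 in anti-CD40 mice 2, 5, and 9, and ran from 498 through a median of 579 to 733 in the control mice. The highest anti-CD40 mouse was thus far under the lowest control mouse. The mean went from 602 ± 85.2 (SD, n = 6) to 177 ± 40.2 (SD, n = 3), and Hpd fell by 1.78 on the log2 scale (SE 0.17, adjusted p = 1.64e-05, limma). This is a 3.43-fold fall, with a 95% interval from 2.65-fold to 4.43-fold.

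Hgd, homogentisate 1,2-dioxygenase, lies on chromosome 16 (37580153 to 37632026). The anti-CD40 mice 2, 5, and 9 had 108, 124, and 146 FPKM, and the control mice ran from 254 through a median of 295 to 343. Mouse order among the anti-CD40 mice was the same as for Hpd, with mouse 2 lowest and mouse 9 highest. Hgd fell by 1.24 on the log2 scale (SE 0.13, adjusted p = 3.14e-05, limma), from a mean of 296 ± 29.6 (SD, n = 6) to 126 ± 19.2 (SD, n = 3). When the mice were rescaled to the hepatocyte markers, the log2 fold change was -0.41 and the call was lost (adjusted p = 0.0731), while the other 4 genes kept theirs.

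Fah, fumarylacetoacetate hydrolase, lies on chromosome 7 (84585159 to 84605942) and acts last in the pathway. Its FPKM were 174, 194, and 197 in anti-CD40 mice 2, 5, and 9, within 1.13-fold of each other. In the control mice they spread more widely, from 310 through a median of 421 to 587. Fah fell by 1.21 on the log2 scale (SE 0.18, adjusted p = 3.93e-04, limma), from 444 ± 98.5 (SD, n = 6) to 189 ± 12.7 (SD, n = 3).

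Qdpr, quinoid dihydropteridine reductase, which returns the cofactor to its active form, had the largest fall of the 6. It lies on chromosome 5 (45434032 to 45450229). Its FPKM were 279, 271, and 316 in anti-CD40 mice 2, 5, and 9 against a lowest level of 853, a median of 1199, and a highest level of 1471 in the control mice. Qdpr fell by 1.98 on the log2 scale (SE 0.17, adjusted p = 1.13e-05, limma), from a mean of 1159 ± 230 (SD, n = 6) to 289 ± 23.6 (SD, n = 3). This 3.95-fold fall had a 95% interval from 3.02-fold to 5.17-fold.

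Pcbd1, pterin-4 alpha-carbinolamine dehydratase, acts just before Qdpr and had the smallest standard error of the 6. It lies on chromosome 10 (61089331 to 61094329). Anti-CD40 mice 2, 5, and 9 had 152, 133, and 156 FPKM, and the control mice ran from 375 through a median of 432 to 461. Its control SD of 0.11 on the log2 scale was smaller than that of all but 5.42% of the same 10155 genes. Pcbd1 fell by 1.54 on the log2 scale (SE 0.11, adjusted p = 2.70e-06, limma), from 428 ± 31.8 (SD, n = 6) to 147 ± 12.3 (SD, n = 3). Each of the 5 genes that fell had an exact permutation p of 0.0238 (2-sided, doubling the p of the smaller tail), and Tat had 0.238. With 84 splits of the mice, 0.0238 is the smallest value that this doubling allows.

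**Figure D2:**
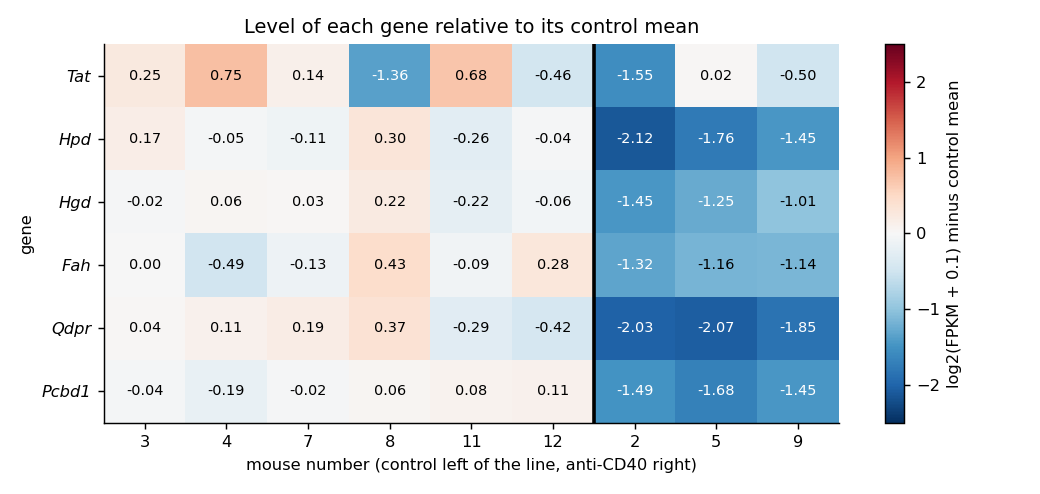
Level of each gene (rows) in each mouse (columns) as log2(FPKM + 0.1) minus the control mean of that gene, control mice left of the line and anti-CD40 mice right, with blue for lower and red for higher. The anti-CD40 mice are at -1.01 or lower in every gene but Tat, where mouse 5 is at 0.02 and control mouse 8 is at -1.36.

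The promoters of 3 of the genes are printed for their contrast in response, Tat as the gene without a call, Qdpr as the one with the largest fall, and Pcbd1 as the one with the smallest error. Each is the 250 bases before the gene's start in RefSeq on GRCm38.p6, read 5′ to 3′ on the gene's strand. Tat is at chr8:109990186-109990435 (plus strand), Qdpr at chr5:45450230-45450479 (minus strand), and Pcbd1 at chr10:61089081-61089330 (plus strand). Capitals mark matches on either strand to the CCAAT box (CCAAT), the GC box (GGGCGG), the TATA box (TATAAA), and a core of the glucocorticoid receptor motif (TGTTCT).
Tat: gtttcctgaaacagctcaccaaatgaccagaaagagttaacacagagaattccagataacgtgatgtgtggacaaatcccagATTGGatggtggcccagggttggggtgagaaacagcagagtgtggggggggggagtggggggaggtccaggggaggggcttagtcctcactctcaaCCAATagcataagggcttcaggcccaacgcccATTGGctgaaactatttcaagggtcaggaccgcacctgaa
Qdpr: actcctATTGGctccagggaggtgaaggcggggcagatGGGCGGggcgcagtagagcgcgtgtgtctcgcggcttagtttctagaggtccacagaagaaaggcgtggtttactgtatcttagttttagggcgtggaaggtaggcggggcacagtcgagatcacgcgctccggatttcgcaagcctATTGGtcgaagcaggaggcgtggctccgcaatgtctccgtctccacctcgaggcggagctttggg
Pcbd1: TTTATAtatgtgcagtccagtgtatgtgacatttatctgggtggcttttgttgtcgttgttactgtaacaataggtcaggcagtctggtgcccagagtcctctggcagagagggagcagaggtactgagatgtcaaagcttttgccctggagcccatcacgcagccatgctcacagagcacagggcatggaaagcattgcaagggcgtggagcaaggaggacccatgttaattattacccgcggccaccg

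Tat held 3 matches to the CCAAT box and none to the other 3 motifs, including the glucocorticoid receptor core. Qdpr held 2 CCAAT boxes and 1 GC box. Pcbd1 held 1 match to the TATA box letters, at the end of the window farthest from the gene's start, and no other match. Among the other genes, Hgd held 1 match to the TATA box and 2 to the CCAAT box, Hpd held 1 to the GC box, and Fah held 3 to the GC box. No motif was common to the 6 genes or to the 5 that fell. Of 32851 such windows from 27025 genes, 33.8% held a CCAAT box, 32.7% a GC box, 12.4% a TATA box, and 16.1% the glucocorticoid receptor core. GC content ran from 38.8% in Hgd to 64.4% in Fah, with a median of 52.4% over all windows. These matches describe the letters in this window only.

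To ask whether the genes fell by different amounts, the ratio of each pair was taken within each mouse, where a scaling common to the mouse cancels. None of 15 pairs passed the adjusted threshold in the exact permutation test (2-sided, Benjamini-Hochberg over the 15 pairs), for which at least 8 pairs would have had to reach the smallest p. In 4 pairs the groups did not overlap, each with p = 0.0238 and adjusted p = 0.0893 (exact permutation test). Hpd was lower relative to Hgd by 0.54 and relative to Fah by 0.57 on the log2 scale in the anti-CD40 mice as measured. The measured change of Hgd was 0.74 smaller than that of Qdpr, and that of Fah 0.78 smaller. Hgd and Fah had a ratio difference of -0.03 (SD 0.14 in the anti-CD40 mice and 0.31 in the control mice, exact permutation p = 0.952). For Tat the ratio differences were 0.87 against Pcbd1 and 1.31 against Qdpr, with adjusted p = 0.286 and 0.159 (exact permutation test).

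The genes with the pattern most like each of the 6 over the 9 mice were taken from 10149 genes by Pearson correlation of log2(FPKM + 0.1). Tat was most like Slc20a2 (r = 0.945), a phosphate transporter. For Hpd they were Klf1 (r = 0.992), a transcription factor of red cell precursors, and Upp2 (r = 0.991), a uridine phosphorylase. The nearest to Hgd were Fggy (r = 0.993), a carbohydrate kinase, and Pxmp2 (r = 0.992), a peroxisomal membrane protein. Park7 (r = 0.997), which protects cells from oxidative stress, and the peroxisomal gene Pex11g (r = 0.994) were nearest to Fah. Atp5j2 (r = 0.998), a subunit of ATP synthase, and the hydrolase gene Cmbl (r = 0.994) were nearest to Qdpr. Txnrd2 (r = 0.997), the mitochondrial thioredoxin reductase, and Acad8 (r = 0.996), an acyl-CoA dehydrogenase of valine breakdown, were nearest to Pcbd1. The 9 points share the difference between the groups, and these correlations are given as a description.

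Other genes of aromatic amino acid metabolism were described from a list of 28, of which 24 passed the filter. Of these, 14 fell and 5 rose, and the median log2 fold change was -0.85. Those that fell included 5 genes of cofactor supply and 3 of ring breakdown and its relatives, and those that rose included 3 transporters. The shares were 58.3% lower and 20.8% higher in the list, beside 21.7% and 23.5% over all genes tested. The list was chosen with earlier results of these data known, so these shares are given as a description. With the mice rescaled to the hepatocyte markers, 5 genes of the list were called lower and 8 higher. Over all 13807 genes these counts were then 618 and 8646.

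**Figure D3:**
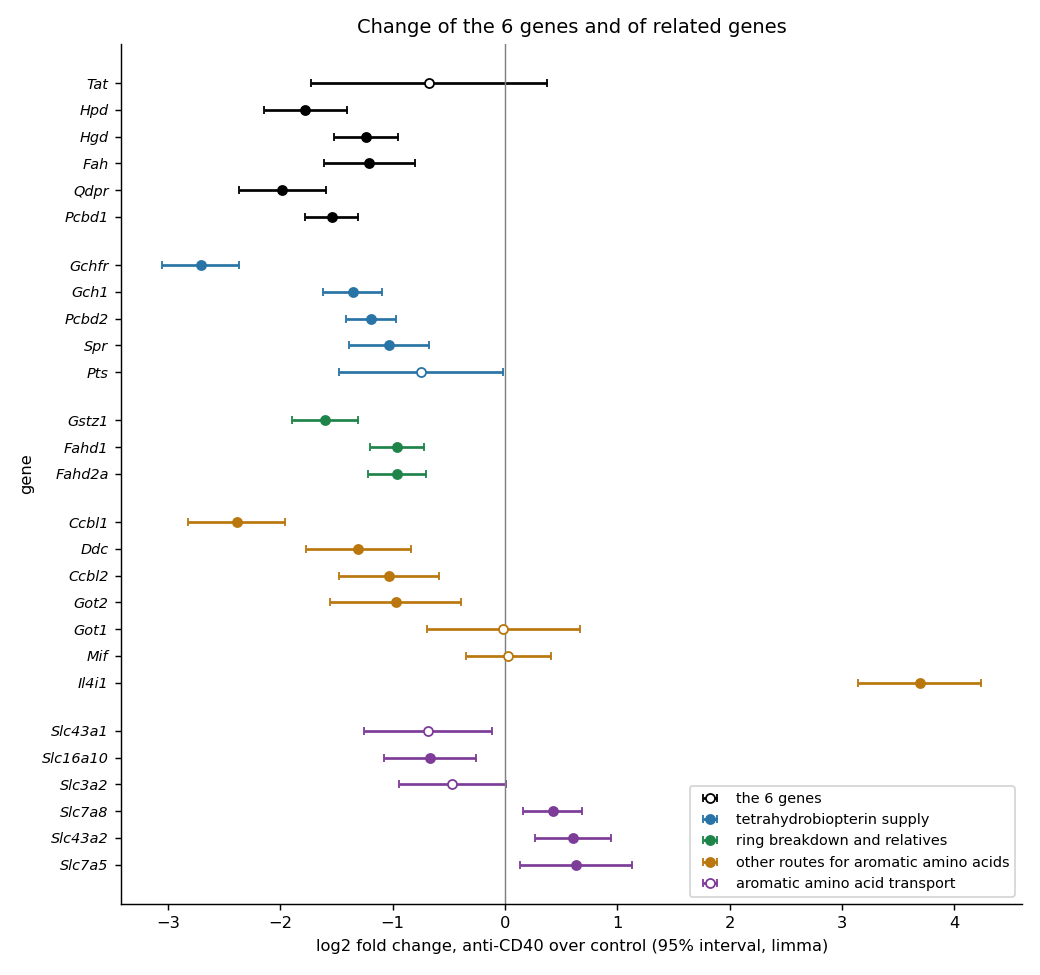
Log2 fold change, anti-CD40 over control, with its 95% interval from limma, for the 6 genes and for related genes grouped by role. Filled points passed an adjusted p of 0.05 and open points did not, with Gchfr at -2.71 and Il4i1 at 3.70 the extremes.

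Of 6 genes that supply tetrahydrobiopterin, 5 fell, against 21.7% lower over all genes. Gch1, the first and rate-limiting enzyme of its synthesis, had FPKM of 51.9 to 56.1 after anti-CD40 against 120 to 156 in the controls, and fell by 1.35 on the log2 scale (SE 0.12, adjusted p = 1.08e-05, limma). Gchfr, the protein that binds Gch1 and adjusts its activity to cofactor and phenylalanine, had 28.2 to 45.3 FPKM against 211 to 281. It fell by 2.71, the most of the genes named from this list (SE 0.15, adjusted p = 9.05e-07, limma). Spr, which completes the synthesis, fell by 1.03, and Pcbd2, a paralog of Pcbd1, fell by 1.19. Pts, the middle enzyme of the synthesis, was at -0.74 on the log2 scale and did not pass (adjusted p = 0.0892, limma). With the mice rescaled to the hepatocyte markers, the calls of Spr and Pcbd2 were lost at -0.21 and -0.36 (adjusted p = 0.149 and 0.132, limma), and Pts turned to 0.08. Pts passed when control mouse 8 or 12 was left out.

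Gstz1, the isomerase between Hgd and Fah, had 181 to 193 FPKM after anti-CD40 against 469 to 675 in the controls. It fell by 1.60 on the log2 scale (SE 0.13, adjusted p = 7.30e-06, limma), so that each tested gene from Hpd to Fah was lower. Fahd1 and Fahd2a, relatives of Fah that do not act on its substrate in this route, each fell by 0.96, and both lost their call on the hepatocyte scale (-0.14 and -0.13). The Hpd relative Hpdl was under the filter, with a highest level of 0.199 FPKM in any mouse.

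Among 7 tested genes that use aromatic amino acids by other routes, 4 fell and 1 rose, against 21.7% lower and 23.5% higher over all genes. Ccbl1, an aminotransferase now named Kyat1, had 16.1 to 19.4 FPKM against 68.0 to 134 and fell by 2.39 on the log2 scale (SE 0.19, adjusted p = 6.91e-06, limma). The related Ccbl2 (Kyat3) fell by 1.03, and Ddc, which decarboxylates aromatic amino acids, fell by 1.31. The mitochondrial aspartate aminotransferase Got2 fell by 0.97 with overlapping groups, and its cytosolic partner Got1 was at -0.01 (adjusted p = 0.975, limma). Il4i1, a phenylalanine oxidase secreted by myeloid and B cells, rose by 3.70 (SE 0.25, adjusted p = 2.29e-06, limma), from 0.241 to 0.419 FPKM in the control mice to 3.41 to 7.29. Its position in the table is shared by 5 gene names, and those of Gstz1, Ddc, Slc43a2, Cebpd, and Klf9 by 2 each, so that reads of neighbours may have been split among them. Th and Tyr, which turn tyrosine into catecholamines and melanin, were listed at the floor in all 9 mice. On the hepatocyte scale the calls of Ccbl2, Ddc, and Got2 were lost at -0.21, -0.48, and -0.15, and Got1 turned to 0.81 (adjusted p = 0.0386, limma). Got2 also lost its call without anti-CD40 mouse 2 (adjusted p = 0.0629, limma), with quantile normalization, and with the Saa genes removed.

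Of 6 tested transporters of these amino acids, 1 fell and 3 rose, against 21.7% lower and 23.5% higher over all genes. Slc16a10, which carries aromatic amino acids across the basolateral membrane, fell by 0.67 (adjusted p = 0.0129, limma). Slc7a5, Slc43a2, and Slc7a8 rose by 0.63, 0.60, and 0.43, and their levels stayed under 4 FPKM in every mouse. Slc3a2, the partner chain of Slc7a5, and Slc43a1 did not pass. With quantile normalization the calls of Slc7a5, Slc43a2, and Slc7a8 were lost at 0.45, 0.41, and 0.24, and Slc43a1 passed (adjusted p = 0.00736, limma). On the hepatocyte scale Slc16a10 turned to 0.16 and Slc3a2 passed in the other direction at 0.36 (adjusted p = 0.0452, limma), and with the Saa genes removed Slc16a10 lost its call at -0.31. Slc7a5 lost its call without any 1 of 7 mice (2, 3, 4, 5, 7, 8, and 9), Slc7a8 without mouse 2 or 9, and Slc16a10 without mouse 2, while Slc43a1 passed without mouse 5 or 11, with a pseudocount of 0.01, and with robust eBayes, and Slc3a2 without mouse 4. Dnajc12, a co-chaperone of the aromatic amino acid hydroxylases, rose by 1.28 (SE 0.32, adjusted p = 0.00794, limma), from 6.63 to 19.9 FPKM in the control mice to 22.2 to 30.3.

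Of 10 transcription factors with known roles in hepatocyte gene expression, 4 fell and 1 rose, against 21.7% lower and 23.5% higher over all genes. Cebpa, which drives many metabolic genes of the hepatocyte, fell by 1.49 on the log2 scale (adjusted p = 4.89e-04, limma). The glucocorticoid receptor gene Nr3c1 fell by 0.49 (adjusted p = 0.0230, limma), and Foxa1 fell by 0.50 with overlapping groups. Cebpd, an acute phase factor, rose by 1.07, while Hnf4a had a log2 fold change of -0.44 and Cebpb of 0.53, neither past the threshold. On the hepatocyte scale Nr3c1 turned to 0.34, Foxa1 to 0.33, and Hnf4a to 0.38, none past the threshold, while Cebpa kept its call and Cebpb passed at 1.36 (adjusted p = 0.00424, limma), as it did with quantile normalization at 0.96. With the Saa genes removed Nr3c1 was at -0.13 and not past the threshold (adjusted p = 0.559, limma). Nr3c1 also lost its call without any 1 anti-CD40 mouse (adjusted p of 0.0553 to 0.0749, limma), and Foxa1 under 13 of 19 processing choices.

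Of 9 genes known to be induced by glucocorticoids, 2 fell and 1 rose, shares of 22.2% and 11.1% against 21.7% and 23.5% over all genes. Tsc22d3 and Pck1 fell by 1.26 and 1.25 on the log2 scale with overlapping groups, and Mt2, a metallothionein that also responds to metals and cytokines, rose by 1.88. The other 6 did not pass, Fkbp5, Klf9, Sgk1, and Dusp1 among them. The log2 fold change of Fkbp5 was 0.50 with a standard error of 0.59, and that of Klf9 was -0.76 with a standard error of 0.45. Tsc22d3 and Pck1 lost their calls on the hepatocyte scale (-0.43 each) and without anti-CD40 mouse 2, while on that scale Klf9 turned to 0.07 and Fkbp5 passed at 1.33. Pck1 also lost its call with quantile normalization, with the Saa genes removed, and with no filter on low values. Sgk1 and Dusp1 passed as higher on the hepatocyte scale at 1.61 and 1.52 (adjusted p = 0.00779 and 0.00683, limma), with the Saa genes removed (adjusted p = 0.0172 and 0.0304, limma), and with quantile normalization (adjusted p = 0.0417 and 0.0307, limma). Without control mouse 4, Klf9, Sgk1, and Dusp1 passed (adjusted p = 0.0334, 0.00296, and 0.0441, limma).

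Marker genes of liver cell types also changed, and not all in the same direction. Of 10 hepatocyte markers, 7 fell and 2 rose, shares of 70% and 20% against 21.7% and 23.5% over all genes. Their median log2 fold change was -1.01. Their summed level was 24715 to 29714 FPKM in the anti-CD40 mice against 44039 to 87836 in the control mice. Alb, Apoa2, and Ttr fell by 2.43, 2.18, and 1.96, whereas Fgb and Apob rose by 0.88 and 0.74, Apob with its call lost without anti-CD40 mouse 5 (adjusted p = 0.0699, limma). Of 8 leukocyte markers 7 rose, a share of 87.5% against 23.5% over all genes. The summed level of these leukocyte markers was 3233 to 4078 FPKM against 56.8 to 170, and S100a8 gave most of it in the anti-CD40 mice. Their part in the lower levels of the 5 genes was not tested.

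Of 5 endothelial markers, 2 rose and 1 fell, shares of 40% and 20% against 23.5% and 21.7% over all genes. Their summed level was 51.4 to 62.0 FPKM against 35.1 to 48.1 in the control mice, although they did not all move in the same direction. Of these markers only Lyve1 had groups that did not overlap, at 13.9 to 18.2 FPKM against 2.51 to 6.57 in the control mice. Of 4 cholangiocyte markers only Sox9 passed, and it rose by 3.57, a share of 25% against 23.5% higher over all genes. The 4 markers of the kidney tubule, a tissue that also expresses several of these enzymes, summed to less than 1 FPKM in every mouse. Anti-CD40 mouse 5 held pancreatic acinar transcripts, with a summed level of 835 FPKM against 27.8 and 32.7 in the other anti-CD40 mice, while the controls had 70.3 to 190. In the control mice nearly all of this sum came from Cela1 alone, at 69.3 to 188 FPKM. Of 9 acinar genes, 8 were tested and 1, Cpb1, passed as higher, a share of 12.5% against 23.5% over all genes. The call of Cpb1 was lost with a pseudocount of 1. Without anti-CD40 mouse 5 the same number of the 6 genes, 5, was called lower, against 18.1% of all genes tested.

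**Figure D4:**
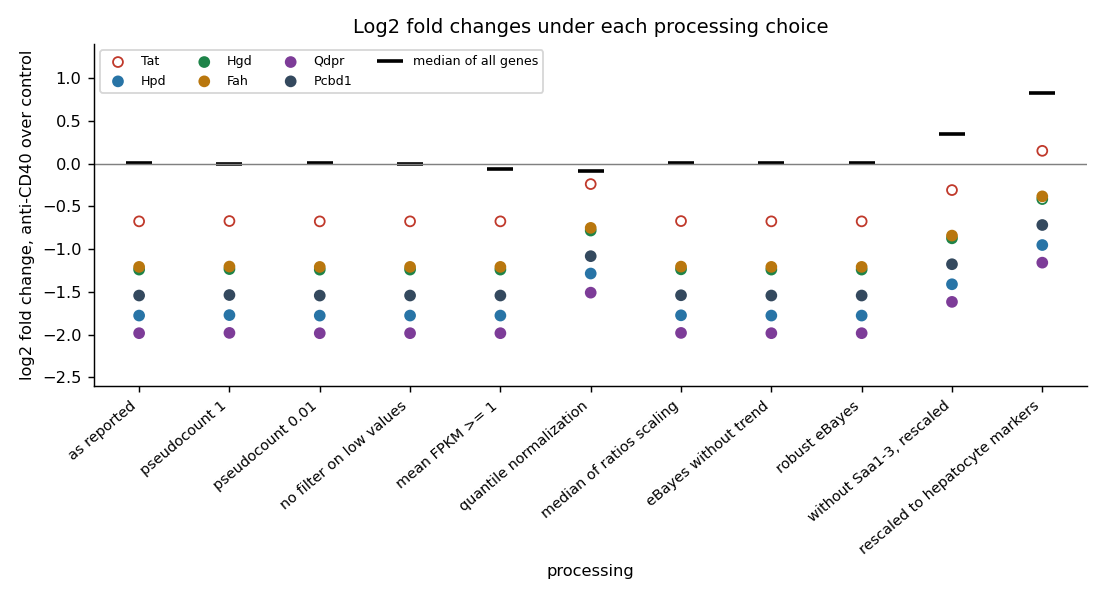
Log2 fold change, anti-CD40 over control, of each of the 6 genes (vertical axis) under each processing choice (horizontal axis), with filled points past an adjusted p of 0.05, open points not past it, and black dashes for the median of all genes tested. With the mice rescaled to hepatocyte markers Tat is at 0.15 and Hgd at -0.41, both not past the threshold, and the median of all genes is at 0.83.

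Rescaling the mice to the hepatocyte markers shifted every gene of a mouse alike, so the distances of the 6 genes from the median of all genes stayed as they were. On that scale Qdpr had a log2 fold change of -1.16, Hpd of -0.95, Pcbd1 of -0.72, and Fah of -0.38, all past the threshold, Hgd was at -0.41 and not past it, and Tat turned to 0.15. These markers were chosen as hepatocyte genes, and 7 of them fell and 2 rose with FPKM as given. Whether this scale follows the hepatocyte content of the tissue was not tested. With the Saa genes removed and the mice rescaled, 11.9% of all genes tested were called lower, and of the 6 genes the same number, 5. Their log2 fold changes were then -1.62 for Qdpr, -1.41 for Hpd, -1.18 for Pcbd1, -0.87 for Hgd, and -0.84 for Fah. Quantile normalization gave -1.51 for Qdpr, -1.29 for Hpd, -1.08 for Pcbd1, -0.78 for Hgd, and -0.75 for Fah.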

How the data were processed

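Liver mRNA of 9 mice was measured (anti-CD40, n = 3; control, n = 6), grouped by the sample labels. Per the labels and methods, the authors made QuantSeq 3′ libraries, aligned reads to mm10 with STAR in BaseSpace, and ran Cufflinks and CuffDiff. The authors deposited FPKM with a floor of 0.01. Their annotation and filter are not given in the sources used here, and the depth of each library is unknown. CuffDiff needs the alignments, so limma was used instead. The 15 genes with a failed estimate were left out. log2(FPKM + 0.1) was tested over 13807 genes (mean FPKM 0.1 or more) in limma 3.58.1 (R 4.3.3, eBayes with trend, 2-sided, Benjamini-Hochberg at 0.05). The pseudocount understates changes of low genes. Single genes and ratios were tested by exact permutation (84 splits, 2-sided by doubling the p of the smaller tail). The labels name no cages or batches, so whether either differed between the groups is unknown. The limma p-values weigh the group difference against the spread between these mice, moderated over all genes tested.

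The 6 genes and all lists were chosen with earlier results of these data known. By rule, the 6 genes were named, with up to 4 largest non-overlapping changes per list and direction, the 2 most similar genes of each, and further list genes with their values. Some list genes and similar genes are counted and not reported here by name. Positions are from the table, with starts counted from 1, and promoters from RefSeq. The scripts, in Python 3.11.15 with numpy 2.4.6, pandas 2.3.3, and matplotlib 3.10.9, were tested on simulated data. Alternatives were pseudocounts of 1 and 0.01, no filter or mean FPKM of at least 1, quantile and median of ratios scaling, eBayes without trend or robust, rescaling without the Saa genes or to hepatocyte markers, and leaving out each mouse. For the list of 28 genes both rescalings, and for the other named list genes all alternatives, were chosen after seeing the data.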

Additional observations from a re-analysis of the deposited data

Results flagged for a closer look

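In 2 of 49 values examined, 1 control mouse lay far from the other 5 by its gap over the range of the 6 mice (Dixon's test), and chance gives about 2.45 at 1 in 20. Both were mouse 12, which was the highest control mouse for Slc7a8 (2.68 FPKM, gap over range 0.633) and for Mt2 (7293 FPKM, gap over range 0.652). None of the 6 tyrosine pathway genes had such a mouse among the controls.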

How the results depend on the processing

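No paired analysis was made, because the labels name no pairs between the mice of the 2 groups. With the mice rescaled to hepatocyte markers, Tat reversed to 0.15 (adjusted p = 0.814, limma) and Hgd weakened to -0.41 (adjusted p = 0.0731, limma), and of the list of 28 genes 5 were called lower and 8 higher. With quantile normalization 3 of that list were called higher. Leaving out each mouse, the list had 12 to 15 genes lower and 3 to 5 higher, with 3 without mouse 2 or mouse 9. The ratio of Hgd to Fah changed by -0.11 to 0.08 when each mouse was left out, turning positive without anti-CD40 mouse 2 (0.017) or control mouse 4 (0.077). Tat ran from -1.02 to -0.24, with adjusted p from 0.0659 to 0.745 (limma). Among the 6 genes 5 were called lower under each choice but the hepatocyte rescaling, where 4 were. Over all genes, 2990 were called lower and 3240 higher, against 1647 and 5635 without the Saa genes and 618 and 8646 with the hepatocyte rescaling. The cause of these changes was not tested beyond the construction of each choice. Of 31 called genes named from the lists, 18 kept their call under each choice but the hepatocyte rescaling. That rescaling reversed the sign of Pts (0.080), Got1 (0.81), Slc16a10 (0.16), Slc3a2 (0.36), Slc43a1 (0.14), Nr3c1 (0.34), Foxa1 (0.33), Hnf4a (0.38), and Klf9 (0.067). Of these, only Slc16a10, Nr3c1, and Foxa1 had been called with FPKM as given, and they lost their calls. It also ended the calls of 9 genes that kept their sign. Got1 also reversed without the Saa genes (0.35) and with quantile normalization (0.44). Got1 ran from -0.30 to 0.26 when each mouse was left out. With no filter on low values 6 of these calls were lost, Apoa2 and Fgb among them. Read totals are unknown, so levels near the floor carry no counting interval.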

Other observations

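Among the 6 control mice alone, the levels of the 6 genes did not all move together. Over 15 pairs, none passed the adjusted threshold (exact permutation over 720 orders, 2-sided, Benjamini-Hochberg over the 15 pairs). Tat and Fah had r = -0.90 (exact permutation p = 0.0139, adjusted 0.208) and rho = -0.83 (exact permutation p = 0.0583, adjusted 0.438), and r = -0.63 without the 2 mice farthest from the median of Tat. Hgd and Qdpr had r = 0.84 (exact permutation p = 0.0306, adjusted 0.229) and rho = 0.89 (exact permutation p = 0.0333, adjusted 0.438), and r = 0.83 without the 2 mice farthest from the median of Hgd. Control mouse 8 had the lowest Tat of the 6 control mice and the highest Hpd, Hgd, Fah, and Qdpr.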
